A study of Mus musculus with 6 samples.

Results

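Cyclins and their partner kinases were examined in RNA-Seq data from the mammary tumors of BK5.ATF3 transgenic mice. The set holds 10 genes, chosen by symbol from the D, E, A and B cyclins and their partner cyclin-dependent kinases (CDKs): *Ccnd1*, *Ccnd2*, *Ccnd3*, *Ccne1*, *Ccne2*, *Ccna2*, *Ccnb1*, *Ccnb2*, *Cdk1* and *Cdk6*. All 10 were present among the 15280 genes of the expression table. The samples came from 3 female mice that carry an ATF3 transgene under the bovine keratin 5 promoter, which is active in basal epithelial cells. Each female had raised 1 litter. Tissue was taken at a tumor length of 1.5 cm, and the age of tumor onset given for this line is 6 to 12 months. From each mouse, 1 mammary tumor (libraries T11035, T11640 and T9232) and the normal mammary gland beside it (libraries M11035, M11640 and M9232) were sequenced, which gives n = 3 for each tissue. The number in a library's name is that of its mouse, and the 3 values of a tissue are given in the order of these names throughout. Both tissues carry the transgene and no wild-type gland was analysed here, so the comparison is of tumor with gland within transgenic animals. *Atf3* itself was not called between them, with a log2 fold change of 0.80 (limma adjusted p = 0.223), but it was called up at 1.41 without gland M9232.

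Cyclins are the regulatory subunits that switch CDKs on at successive stages of the cell division cycle. D cyclins respond to growth signals and activate CDK4 and CDK6, which phosphorylate the retinoblastoma protein and release E2F transcription factors. E cyclins with CDK2 then start DNA replication, cyclin A2 acts through S phase into G2 with CDK2 and CDK1, and B cyclins with CDK1 drive entry into mitosis. The RNAs of the D cyclins follow growth signals, whereas those of the E, A and B cyclins and of *Cdk1* are made mainly in dividing cells. Cyclin D1 is a well-known oncoprotein of the mammary gland and a target of Wnt/β-catenin signaling in many cell types.

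Values are given in CPM, the fragments on a gene divided by edgeR's effective library size in units of 1e6 fragments. Between 4750989 and 7806908 fragments fell on genes in each library, and a floor of 3 fragments corresponds to 0.393 to 0.610 CPM. Replicates of a tissue correlated with r between 0.949 and 0.980 across genes, on log2 values. Fold changes were tested with limma on log2(CPM + 0.5), with Benjamini-Hochberg adjustment over all 15280 genes. Genes were called where the fold change was at least 2 (1 on the log2 scale) and the adjusted p did not exceed 0.05. The glands held abundant adipocyte transcripts, with a sum over 8 markers of 3296 to 6442 CPM against 149 to 207 CPM in the tumors. A sum over 6 luminal epithelial markers lay between 433 and 866 CPM in the glands and between 406 and 479 CPM in the tumors, but its members went both ways, with 3 called up and 2 called down. A sum over 6 basal and squamous markers rose from 46.6 to 98.4 CPM to between 2571 and 3244 CPM. In bulk tissue of this kind, fewer cells of a type and less RNA per cell cannot be told apart.

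Of the 10 genes, 6 rose in the tumors and 0 fell. *Ccnb1* and *Ccnd1* rose most, followed by *Cdk1*, *Ccnb2*, *Ccna2* and *Ccnd2*. Over all genes, 14.5% were called up and 13.7% were called down. All 3 tumors exceeded all 3 glands for 7 of the 10 genes, against 27.6% of all genes. For 1 gene, *Ccnd3*, all 3 tumors lay below all 3 glands, against 26.3% of all genes. The groups overlapped for *Ccne1* and *Ccne2*. The median log2 fold change of the 10 genes was 1.20, beside -0.0028 for all genes tested. Within the mice, the median log2 difference between tumor and gland was 1.23 for T11035, 1.52 for T11640 and 0.73 for T9232.

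**Figure D1:**
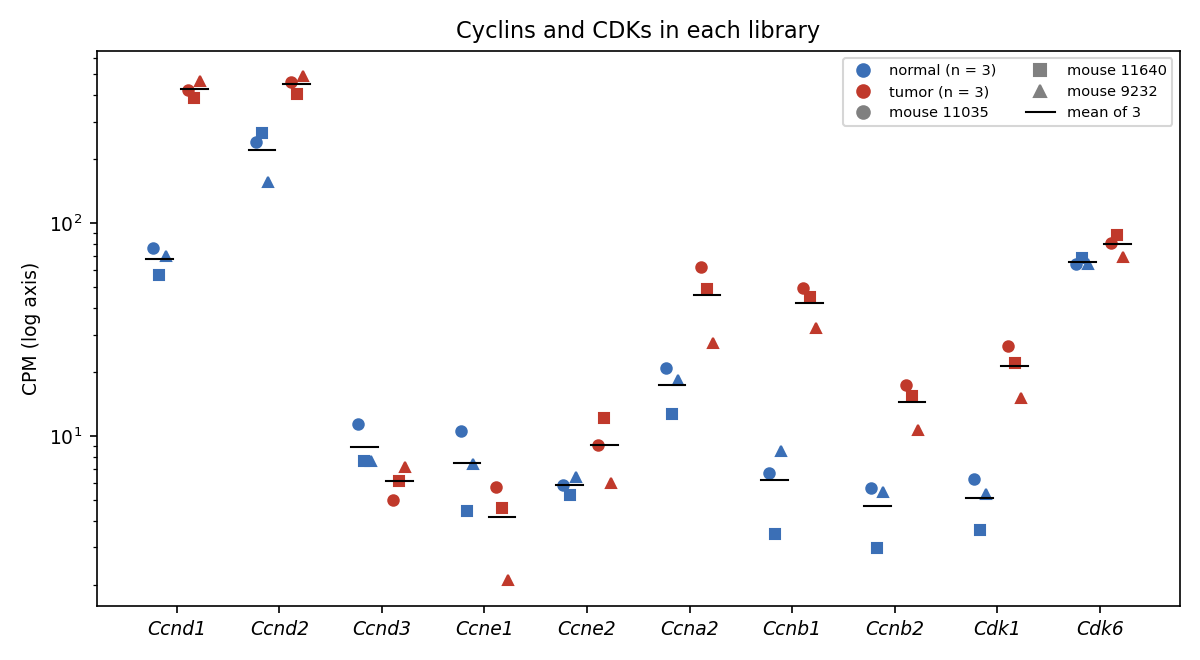
CPM of the 10 genes in each of the 6 libraries, on a log axis; color gives the tissue, the marker shape gives the mouse, and each line is the mean of 3 libraries. For *Ccnd1* the 3 tumors sit between 389 and 465 CPM and the 3 glands between 56.8 and 76.4 CPM, while for *Ccne1* and *Ccne2* the tissues overlap.

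*Ccnd1* encodes cyclin D1 and lies at chr7:152115836-152125774 on the minus strand of mm9, the mouse genome build of the files. It was measured at 76.4, 56.8 and 70.3 CPM in glands M11035, M11640 and M9232. In the tumors of the same mice, its level was 424, 389 and 465 CPM. The 3 tumors lay close together, and each was at least 5.54-fold above the gland of its own mouse. The mean increased from 67.9 ± 10.04 to 426 ± 38.3 CPM (SD, n = 3), a 6.28-fold change. The log2 fold change was 2.65 (SE 0.16, 95% interval 2.29 to 3.00, limma adjusted p = 7.56e-06), and it stayed between 2.53 and 2.74 under the 15 alternative settings. A stretch of 818 bases of its exons overlaps *Oraov1* on the opposite strand, and the library kit (NuGEN Ovation) does not mark strand. *Oraov1* itself was not called, with a log2 fold change of 0.23 (limma adjusted p = 0.379).

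*Ccnd2* encodes cyclin D2 (chr6:127075797-127101066, minus strand). The glands held 240, 267 and 157 CPM, and the tumors held 459, 404 and 492 CPM. Every tumor exceeded every gland, and M9232 was the lowest gland. Mean levels were 221 ± 57.4 CPM in the glands and 452 ± 44.3 CPM in the tumors (n = 3), a 2.04-fold rise that is just past the threshold. The log2 fold change was 1.06 (SE 0.21, 95% interval 0.59 to 1.53, limma adjusted p = 0.00375). The call needed both libraries of the third mouse: the log2 fold change was 0.83 without gland M9232 and 0.996 without tumor T9232, with limma adjusted p-values of 0.00470 and 0.0204.

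*Ccnd3* encodes cyclin D3 (chr17:47642000-47736632, plus strand). Its level was 11.4, 7.60 and 7.66 CPM in the glands and 5.02, 6.16 and 7.19 CPM in the tumors. All tumors were below all glands, but the log2 difference from the gland of the same mouse was only -0.09 in T9232, compared with -1.11 in T11035. The log2 fold change of -0.49 (SE 0.25, 95% interval -1.07 to 0.09) did not pass the test (limma adjusted p = 0.155). *Ccnd3* has 1 near-identical copy elsewhere in mm9, 95.5% identical over 1843 bp, and overlaps *Bysl* on the opposite strand by 353 bases, so part of its count is uncertain.

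Because the genes differ in length, levels were compared between D cyclins as CPM per kilobase of annotated exon. Summed over the 3 genes, this D cyclin signal was 67.1, 64.9 and 49.2 CPM per kb in the glands and 193, 175 and 211 CPM per kb in the tumors. *Ccnd1* made up 29.7%, 22.8% and 37.3% of that sum in the glands and 57.2%, 57.9% and 57.6% in the tumors. The share was nearly the same in the 3 tumors and varied between the glands. Its mean was 29.9% ± 7.23 in the glands and 57.6% ± 0.381 in the tumors (SD, n = 3), a difference of 27.6 percentage points. A two-sided exact permutation test gave p = 0.1, the smallest value that 3 against 3 libraries can give, and exact sign flips within the 3 mice gave p = 0.25, also the smallest possible. Per kilobase, *Ccnd2* was the leading D cyclin in every gland, with a mean share of 63.5%, and *Ccnd1* led in every tumor. The lead of *Ccnd1* depended on the division by exon length. In CPM, *Ccnd2* was above *Ccnd1* in every tumor, at 459, 404 and 492 against 424, 389 and 465 CPM. The mean share of *Ccnd2* in the tumors was 41.0%, and that of *Ccnd3* was 6.54% in the glands and 1.41% in the tumors.

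**Figure D2:**
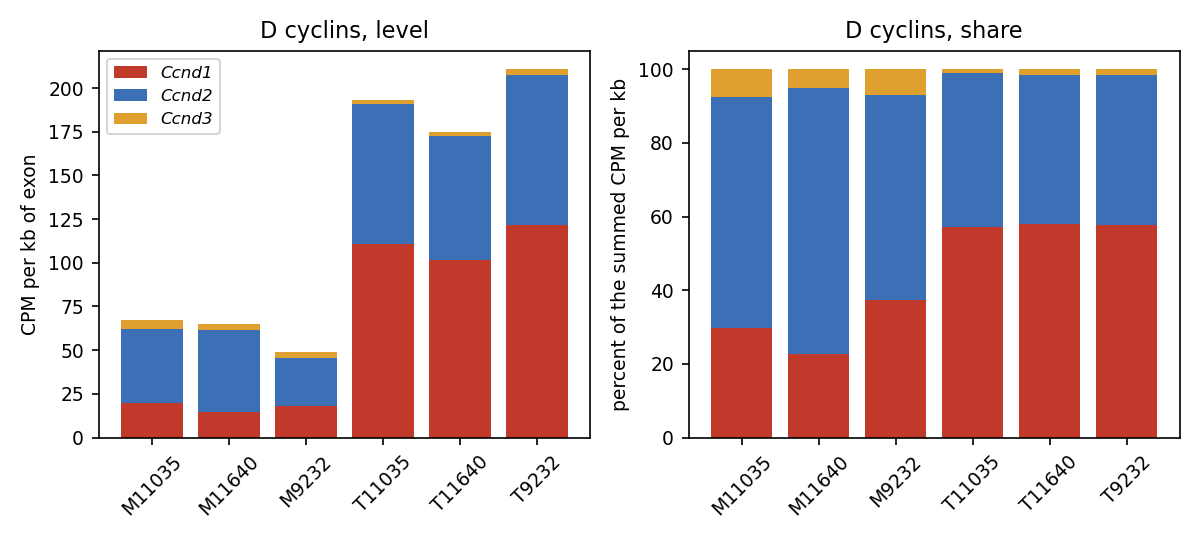
Stacked bars of the 3 D cyclin genes in each library, as CPM per kb of exon (left) and as percent of their sum (right). The sum is 49.2 to 67.1 CPM per kb in the glands and 175 to 211 CPM per kb in the tumors, and the *Ccnd1* share is 22.8% to 37.3% in the glands and 57.2% to 57.9% in the tumors.

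*Cdk6* encodes one of the 2 kinases that D cyclins activate (chr5:3343893-3523218, plus strand). The glands held 64.5, 68.7 and 64.2 CPM and the tumors 81.1, 87.7 and 69.5 CPM. Every tumor was above every gland, although T9232 was only slightly above M11640. The log2 fold change of 0.26 (SE 0.15, 95% interval -0.07 to 0.60) did not pass the test (limma adjusted p = 0.185), and the upper end of the interval is below a 2-fold change. The other D cyclin kinase, *Cdk4*, was measured at 20.3, 21.1 and 21.1 CPM in the glands and at 43.0, 42.2 and 41.1 CPM in the tumors. Its log2 fold change of 0.996 (SE 0.15, limma adjusted p = 9.54e-04) was just under the 2-fold threshold, and *Cdk4* was called up in 8 of the 15 alternative settings.

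**Figure D3:**
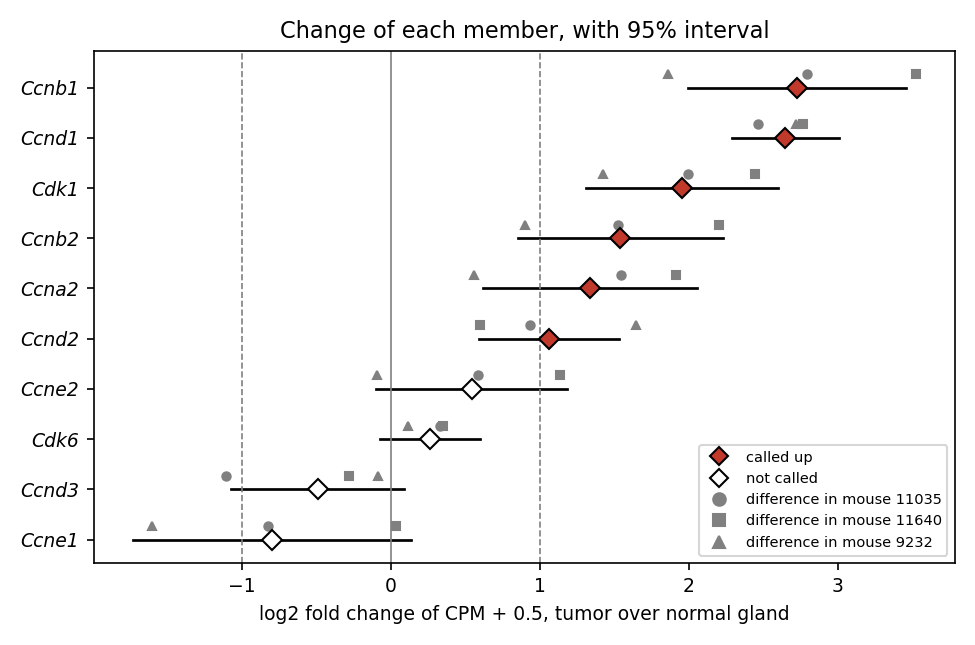
Log2 fold change of CPM + 0.5 in tumor over gland for the 10 genes, with 95% intervals from limma as bars and the difference within each mouse as gray markers; dashed lines mark a 2-fold change. The 6 filled diamonds, from *Ccnb1* at 2.72 to *Ccnd2* at 1.06, were called up, and the intervals of the 4 open diamonds include 0.

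The E cyclins, which activate CDK2 at the start of DNA replication, did not pass the test in either direction. *Ccne1* (chr7:38883003-38892553, minus strand) was measured at 10.6, 4.46 and 7.39 CPM in the glands and at 5.77, 4.59 and 2.10 CPM in the tumors. These levels rest on 14 to 54 fragments per library, and the tissues overlapped. The mean was 7.47 ± 3.06 CPM in the glands and 4.15 ± 1.87 CPM in the tumors, with a log2 fold change of -0.80 (SE 0.41, 95% interval -1.73 to 0.14, limma adjusted p = 0.154). Within a mouse, the log2 difference between tumor and gland was -1.60 for T9232 and 0.04 for T11640.

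*Ccne2* (chr4:11118498-11131926, plus strand) was measured at 5.90, 5.29 and 6.43 CPM in the glands and at 9.12, 12.2 and 5.99 CPM in the tumors. Tumors T11035 and T11640 were above all glands, and T9232 lay within the range of the glands. The log2 fold change was 0.54 (SE 0.28, 95% interval -0.10 to 1.19, limma adjusted p = 0.157). Its exons overlap those of *Ints8* on the opposite strand by 609 bases. *Cdk2*, the kinase partner of both E cyclins, was also not called, with a mean of 10.03 ± 0.720 CPM in the glands and 12.1 ± 2.17 CPM in the tumors (log2 fold change 0.25, limma adjusted p = 0.374).

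*Ccna2* encodes cyclin A2, the cyclin of S phase and G2 (chr3:36463788-36471072, minus strand). Levels were 20.9, 12.7 and 18.3 CPM in the glands and 62.0, 49.3 and 27.3 CPM in the tumors. All tumors were above all glands, and T9232 was the closest to its own gland. The mean rose 2.66-fold, from 17.3 ± 4.20 to 46.2 ± 17.6 CPM. The log2 fold change was 1.34 (SE 0.32, 95% interval 0.62 to 2.06, limma adjusted p = 0.00950), with a range of 1.09 to 1.67 and a highest adjusted p of 0.0464 over the 15 alternative settings. A stretch of 512 bases of its exons overlaps *Exosc9* on the opposite strand, which was not called (log2 fold change 0.38, limma adjusted p = 0.132).

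The genes of the mitotic kinase, *Cdk1* and the B cyclins *Ccnb1* and *Ccnb2*, all rose. *Cdk1*, the kinase that drives entry into mitosis (chr10:68799383-68815686, minus strand), was at 6.30, 3.63 and 5.33 CPM in the glands and at 26.6, 22.0 and 15.1 CPM in the tumors. No tumor came near the glands, and the tumor exceeded the gland 4.22-fold for T11035, 6.06-fold for T11640 and 2.84-fold for T9232. The mean rose 4.18-fold, from 5.09 ± 1.35 to 21.3 ± 5.78 CPM, with a log2 fold change of 1.95 (SE 0.28, 95% interval 1.31 to 2.60, limma adjusted p = 8.15e-04).

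*Ccnb1* encodes cyclin B1 (chr13:101548605-101556525, minus strand). The glands held 6.71, 3.47 and 8.48 CPM and the tumors 49.5, 45.1 and 32.1 CPM. The lowest tumor was far above the highest gland, and the fold within a mouse ranged from 3.78 for T9232 to 13.0 for T11640. The mean rose 6.79-fold, from 6.22 ± 2.54 to 42.2 ± 9.06 CPM (log2 fold change 2.72, SE 0.32, 95% interval 1.995 to 3.45, limma adjusted p = 2.54e-04). Its transcript has 3 near-identical copies elsewhere in mm9, 97.6% to 99.1% identical over 1505 to 1858 bp, so fragments from the copies and from the gene may have been exchanged or discarded.

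*Ccnb2* encodes cyclin B2 (chr9:70255496-70269361, minus strand), and no such copy was found for it. The glands held 5.69, 2.97 and 5.47 CPM and the tumors 17.3, 15.5 and 10.6 CPM. The groups did not overlap. The mean rose 3.07-fold, from 4.71 ± 1.51 to 14.5 ± 3.44 CPM (log2 fold change 1.54, SE 0.30, 95% interval 0.85 to 2.23, limma adjusted p = 0.00394).

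Genes of mitosis are often controlled through a CHR element (cell cycle genes homology region), read by MuvB complexes with B-MYB, FOXM1 or p130, next to CCAAT boxes bound by NF-Y. The promoters of *Cdk1*, *Ccnb1* and *Ccnb2* are given here, with that of *Ccne1*, which was not called. A link between these motifs and the change in the tumors was not tested. The sequences are from RefSeq on build GRCm38.p6, which is not the build of the expression files, and run 5′ to 3′ on the strand of the gene from 150 bases before to 30 bases after the start. Capitals mark each match to the CHR letters TTTGAA or TTTAAA and to the CCAAT box, on either strand. The windows are chr13:100786457-100786636 for *Ccnb1*, chr9:70421525-70421704 for *Ccnb2*, chr10:69352883-69353062 for *Cdk1* and chr7:38107461-38107640 for *Ccne1*, all on the minus strand.
Ccnb1: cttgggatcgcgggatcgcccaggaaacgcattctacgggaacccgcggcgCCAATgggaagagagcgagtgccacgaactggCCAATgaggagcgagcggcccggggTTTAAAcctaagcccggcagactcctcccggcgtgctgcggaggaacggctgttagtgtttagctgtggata
Ccnb2: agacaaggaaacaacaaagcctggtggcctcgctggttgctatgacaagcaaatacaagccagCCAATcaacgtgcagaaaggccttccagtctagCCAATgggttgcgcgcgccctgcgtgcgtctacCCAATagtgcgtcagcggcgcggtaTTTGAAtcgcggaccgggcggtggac
Cdk1: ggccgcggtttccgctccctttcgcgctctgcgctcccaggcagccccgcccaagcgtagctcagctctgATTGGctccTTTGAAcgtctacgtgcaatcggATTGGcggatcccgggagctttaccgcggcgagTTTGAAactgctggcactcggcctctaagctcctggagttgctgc
Ccne1: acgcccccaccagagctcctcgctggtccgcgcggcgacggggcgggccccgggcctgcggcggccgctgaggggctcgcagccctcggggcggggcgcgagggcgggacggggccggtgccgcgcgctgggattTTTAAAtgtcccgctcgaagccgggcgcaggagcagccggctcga

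Matches were counted in the full windows of 250 bases before and 50 bases after the start, with positions counted from the start. *Ccnb1* had 1 CHR match, at -42, and 2 CCAAT matches, at -99 and -67. *Ccnb2* had CCAAT matches at -87, -54 and -21 and CHR matches at 5 and, outside the stretch shown, at -167. *Cdk1* had CHR matches at -71 and -15 and CCAAT matches at -80, -48 and, outside the stretch shown, -208. All 3 windows thus held both motifs, which stood together in 10.7% of the 32851 mouse promoters of the same length; 27.6% held a CHR match and 37.4% a CCAAT match. The *Ccne1* window had 1 CHR match, at -15, and 0 CCAAT matches. An E2F core spelled TTCCCGC, and also searched as TTCGCGC, as TTGCCGC and as TTGGCGC, found in 9.57% of promoters, matched in *Cdk1* at -178 and -130 and in *Ccnb1* at -102, where it overlaps the CCAAT match at -99. The *Cdk6* window held none of the 3 motifs, and of the 2 promoters listed for *Ccnd3*, 1 held a single CCAAT match. The table matched 6 of the 10 genes and had no entry for *Ccnd1*, *Ccnd2*, *Ccne2* and *Ccna2*.

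Per kilobase of exon, the order of the 10 genes differed between the tissues. Exon lengths are from GENCODE whereas fragments were counted on RefSeq genes, so the order between genes is approximate. The ranks of *Ccnb1* and *Ccnd3* are less certain still, since both have near-identical copies elsewhere in mm9. In the glands, *Ccnd2* was highest at 38.8 ± 10.1 CPM per kb, followed by *Ccnd1* at 17.7 ± 2.62 and *Cdk6* at 17.6 ± 0.683 CPM per kb. *Ccnd1* and *Cdk6* overlapped, and both stood apart from *Ccnd2* above and from *Ccna2* below, at 4.94 ± 1.20 CPM per kb. The other genes followed from *Ccnd3* at 3.94 to *Ccnb1* at 1.47 CPM per kb, and each overlapped its neighbor in the order. In the tumors, *Ccnd1* was highest at 111 ± 9.98 CPM per kb, followed by *Ccnd2* at 79.2 ± 7.78, *Cdk6* at 21.3 ± 2.46 and *Ccna2* at 13.2 ± 5.001 CPM per kb, with no overlap between neighbors. *Ccnb1*, at 10.01 ± 2.15 CPM per kb, was last in the glands, level with *Cdk1*, and the fifth in the tumors, where its range overlapped those of *Ccna2* and *Ccnb2*. *Cdk1*, at 6.17 ± 1.68 CPM per kb, did not overlap *Ccnd3*, at 2.72 ± 0.481 CPM per kb, and *Ccne2* and *Ccne1* came last at 2.60 and 1.56 CPM per kb.

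The rest of the cell cycle machinery was described with 8 lists, whose counts stand against the 14.5% of all genes called up and the 13.7% called down. The inhibitor genes *Cdkn2a* and *Cdkn2d*, *Pkmyt1* of the CDK1 and CDK2 regulators, and *Ccna1*, *Ccnb3* and *Ccno* were listed. They were not among the 15280 genes and are not counted. Of 20 genes of mitosis, 19 were called up and 0 down, with a median log2 fold change of 1.52. The highest was *Ttk*, a spindle checkpoint kinase, with 9.55 ± 3.45 CPM in the glands and 40.3 ± 11.6 CPM in the tumors (log2 fold change 2.04, limma adjusted p = 9.49e-04). The exception, *Kif20a*, a kinesin of cytokinesis, had a log2 fold change of 0.70 (limma adjusted p = 0.0527). Of 17 genes of DNA synthesis, 2 were called up and 0 down, with a median of 0.63, and all 17 estimates were above 0. A count of 2 of 17 is near the 14.5% of all genes called up. Both called genes encode subunits of ribonucleotide reductase, which makes deoxynucleotides: *Rrm2* rose by 1.79 and *Rrm1* by 1.21 on the log2 scale. The list of other cyclins and CDKs had 29 genes, among them *Mnat1*, which is neither a cyclin nor a CDK. Only *Ccnf* and *Cdk18* were called, both up, and the median was 0.08, so the count was below the share of all genes. *Ccnf*, which encodes the F-box protein cyclin F, was at 2.85 ± 1.68 CPM in the glands and 9.31 ± 1.32 CPM in the tumors, and without tumor T11640 neither it nor *Cdk18* was called (count 0). *Cdk18*, at 2.44 ± 0.979 and 6.35 ± 0.910 CPM, was also not called without gland M11640.

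Of 6 CDK inhibitors, 3 rose and 1 fell, with a median of 0.60, beside 14.5% of all genes called up and 13.7% called down. The 1 gene that fell is near the share of all genes. *Cdkn1a*, which encodes p21, was at 14.8, 12.4 and 7.66 CPM in the glands and at 99.4, 178 and 223 CPM in the tumors. Every tumor was far above every gland (log2 fold change 3.76, SE 0.33, limma adjusted p = 5.37e-05). *Cdkn2b*, which encodes the CDK4 and CDK6 inhibitor p15, rose by 2.59 on the log2 scale. *Cdkn2c*, which encodes p18 of the same inhibitor family, fell from 24.4 ± 7.91 to 4.15 ± 1.20 CPM (log2 fold change -2.40, limma adjusted p = 3.77e-04). *Cdkn3*, a phosphatase that acts on CDKs, was called up at 1.15, but the call was lost without any 1 of 5 libraries: M11640, M9232, T11035, T11640 or T9232. Its log2 fold change across the 15 alternatives ranged from 0.91 to 1.44.

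Of 6 regulators of CDK1 and CDK2 activity, 3 rose and 0 fell, with a median of 0.99, again beside 14.5% of all genes called up. *Cdc25c*, a phosphatase that activates CDK1, rose by 2.14 (limma adjusted p = 0.00318), and *Cks2* and *Cks1b*, small CDK-binding subunits, rose by 1.46 and 1.07 on the log2 scale. *Cks1b* was not called without M11640 or without T11640, with a lowest value of 0.88. Among 23 genes of cyclin degradation, 3 rose and 2 fell, and the median was 0.19. Both counts were at or below the shares of all genes, 14.5% called up and 13.7% called down. *Cdc20*, an activator of the anaphase-promoting complex that destroys B cyclins, rose from 2.16 ± 0.282 to 9.45 ± 0.841 CPM (log2 fold change 1.91, limma adjusted p = 3.38e-04). The other genes of this list called up were *Ube2c* and *Skp2*. *Fbxo31* and *Fbxo4*, which encode F-box proteins known to bind cyclin D1, fell by 1.71 and by 1.37 on the log2 scale. *Fbxo31* was low, at 6.76 ± 2.40 CPM in the glands and 1.67 ± 0.447 CPM in the tumors.

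Of 13 genes of the retinoblastoma family and the E2F factors, 3 rose and 2 fell, with a median of 0.30. Over all genes, the shares were 14.5% and 13.7%, and the count of 2 of 13 is near the latter. *Rb1*, which encodes the retinoblastoma protein, was at 310, 514 and 565 CPM in the glands and at 186, 206 and 158 CPM in the tumors. All tumors were below all glands (log2 fold change -1.29, SE 0.23, limma adjusted p = 0.00244), and *Rbl2*, which encodes p130, fell by 1.14. *E2f8*, a repressor E2F, rose from 6.55 ± 1.70 to 58.9 ± 10.1 CPM (log2 fold change 3.09, limma adjusted p = 2.27e-05). *E2f7* rose by 2.03 on the log2 scale. *E2f3* rose from 23.3 ± 1.98 to 55.3 ± 3.65 CPM (log2 fold change 1.23, limma adjusted p = 3.69e-04). *E2f1* was at 3.61 ± 1.33 CPM in the glands and 4.67 ± 1.10 CPM in the tumors and was not called. Of 8 genes of the MuvB and FoxM1 factors, 1 was called up, *Foxm1*, at 5.44 ± 1.53 and 16.2 ± 4.42 CPM (log2 fold change 1.49, limma adjusted p = 0.00330). That count is near the 14.5% of all genes called up. The median of the list was 0.38, and the count of called genes was 2 without gland M11640.

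**Figure D4:**
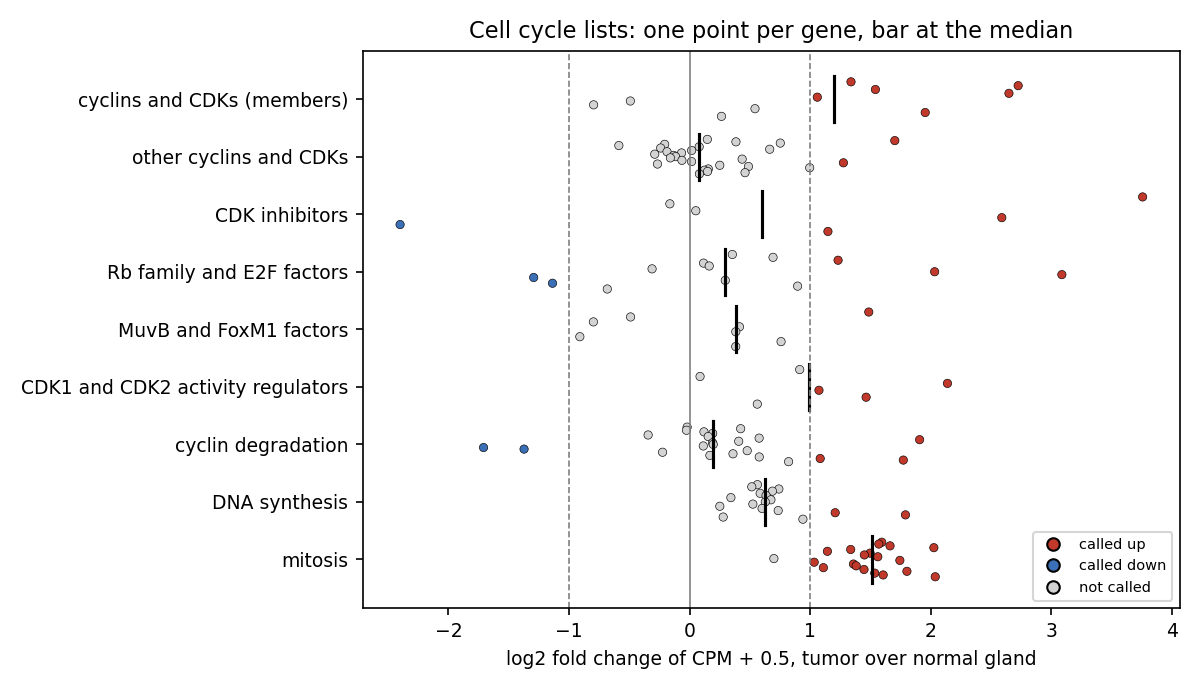
Log2 fold change of CPM + 0.5 in tumor over gland, with 1 point per gene for the 10 cyclins and CDKs and for the 8 other cell cycle lists; black bars are medians and dashed lines mark a 2-fold change. Called genes are colored; the mitosis list has 19 of 20 genes called up and a median of 1.52, and the list of other cyclins and CDKs has a median of 0.08.

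The libraries of a tissue also differed among themselves. In the tumors, T9232 was the lowest library for 7 of the 10 genes, for 19 of 20 genes of mitosis and for 16 of 17 genes of DNA synthesis. The exceptions among the 10 genes were the D cyclins *Ccnd1*, *Ccnd2* and *Ccnd3*, which were each highest in T9232. Tumor T11035 was the highest for 5 of the 10 genes and for 18 of 20 genes of mitosis. In the glands, M11640 was the lowest library for 8 of the 10 genes, for 19 of 20 genes of mitosis and for 13 of 17 genes of DNA synthesis. With 3 libraries a tissue, these orders are a description. How often each library was lowest or highest over all genes was not counted, so the orders may not be particular to these lists.

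The summed level of the mitosis list was 848, 460 and 763 CPM in glands M11035, M11640 and M9232, and 2254, 1817 and 1271 CPM in the tumors of the same mice. Markers of lymphocytes were in the same order in the glands as the mitosis sum. The sum over 5 B cell markers was 358, 142 and 278 CPM in the glands and 4.09, 2.23 and 3.15 CPM in the tumors, where *Cd79a* and *Pax5* were at or under the floor in all 3. All 5 B cell markers fell. The sum over 6 T cell markers was 421, 166 and 309 CPM in the glands and 25.3, 27.9 and 41.1 CPM in the tumors, and all 6 fell. The part of lymphocytes in the gland levels of the cyclins was not tested. Gland M11035 also held the most skeletal muscle signal, with 900 CPM over 4 markers against 348 CPM in M11640, 3.28 CPM in M9232 and 7.07 to 13.3 CPM in the tumors.

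**Figure D5:**
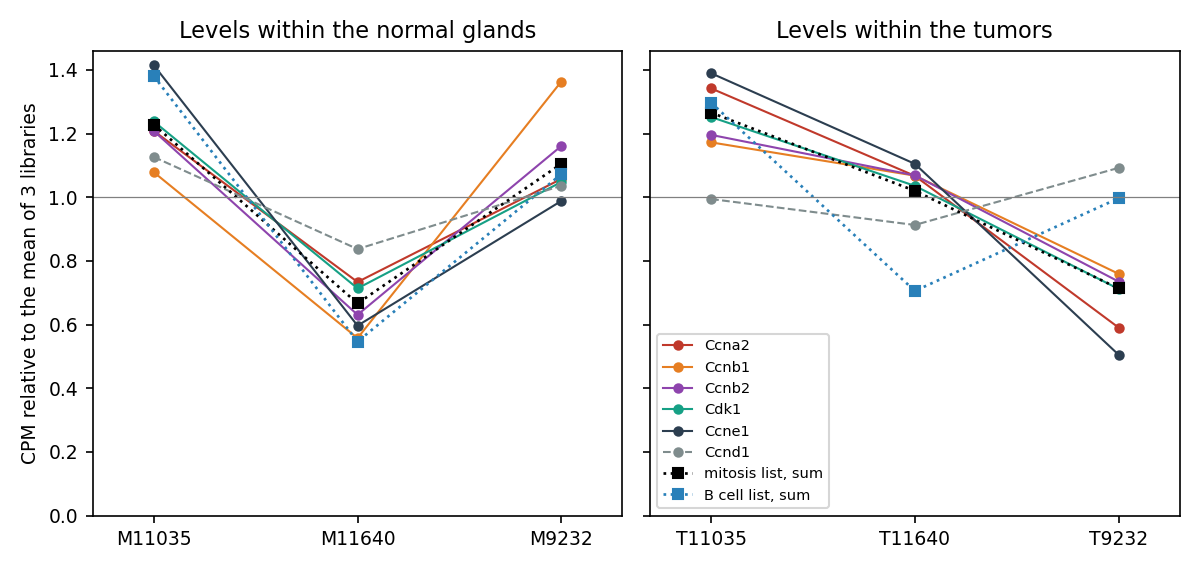
CPM of 6 genes and summed CPM of the mitosis and B cell lists in each library, divided by the mean of the 3 libraries of that tissue (left, glands; right, tumors); lines only join the points of 1 gene or list. In the glands all 8 series have their lowest point at M11640, and in the tumors *Ccna2*, *Ccnb1*, *Ccnb2*, *Cdk1*, *Ccne1* and the mitosis sum are lowest at T9232, whereas *Ccnd1* is highest there.

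The genes with the pattern closest to *Ccnd1* and *Ccnb1* over the 6 libraries were ranked by Euclidean distance between log2(CPM + 0.5) profiles, each centered on its mean. Closest to *Ccnd1* were *Wdr95* at a distance of 0.267, *Tnfrsf9* at 0.289 and *Mab21l3* at 0.305. *Wdr95* averaged 0.450 CPM in the glands, near the floor, and 5.26 CPM in the tumors. Closest to *Ccnb1* were *Plekhn1* at 0.519, *Pkp3* at 0.558 and *4632434I11Rik* at 0.609. Among the 10 genes, *Ccnb1* was the closest to *Ccnd1*, at 0.874, and *Cdk1* was the next closest to *Ccnb1*, at 1.08. Over all genes, these 2 distances held ranks 179 and 122, so many genes outside the set lay closer. The distances rest on 6 libraries that share 3 mice and are a description.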

How the data were processed

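RNA-Seq libraries were made from total RNA of 3 tumors and 3 matched glands (6 libraries), and each library was assigned to its tissue from the labels. According to the study's methods and the submitters' processing notes, the authors mapped read pairs to mm9 with TopHat2 2.0.3, counted fragments per RefSeq gene with HTSeq 0.5.3p9, removed genes with fewer than 10 fragments, and normalized with edgeR 3.6.1. The deposited values are a normalized signal in CPM on edgeR's effective library size. Dividing by the value of 1 fragment gave whole fragments, within a tolerance of 0.1, for 100% of values. Between libraries of a tissue, chi-square per degree of freedom was at least 13.0, so none was a copy. CPM was the planned unit, but the columns do not share a total, and the unit signal was recorded with the planned test kept.

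A two-sided moderated test was run over all 15280 genes with limma 3.58.1 under R 4.3.3, without a block and with the trend option, on log2(CPM + 0.5), and the procedure was tested on simulated data. The study states no term for the mouse. The mouse numbers pair the samples, since tumor and gland came from the same animal; deviations from the tissue means correlated with r = 0.107, 0.151 and 0.0168 for T11035, T11640 and T9232 over 14712 genes. The alternatives were 2 other pseudocounts (0.1 and 1), a minimum mean of 1 CPM, 2 other scalings, the mouse as a block, edgeR 4.0.16 with and without that block, DESeq2 1.42.0, and each library left out in turn. Near-identical copies of the 10 genes (at least 95% over at least 500 bp) were searched with BLAST 2.17.0. Gene positions and exon lengths are from GENCODE on mm9. The 10 genes, the 8 cell cycle lists and the 9 lists of cell type markers were chosen with earlier results of these data known. Named are the 10 genes, the called list genes with the largest changes and partners of the 10 genes, and the 3 nearest genes to *Ccnd1* and *Ccnb1*. Other called genes of the lists, *Kif20a* and *E2f1* were named after their values were seen. Of the marker lists not given in the report, the sum over 4 macrophage markers was 213 to 750 CPM in the glands and 351 to 554 CPM in the tumors. The sum over 5 fibroblast markers was 781 to 3214 and 5489 to 6017 CPM, with 2 markers called up and 0 down. For 4 endothelial markers it was 320 to 435 and 173 to 245 CPM, with 2 called down and 0 up. Columns used were all 6, with 0 left out.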

Additional observations from a re-analysis of the deposited data

How the results depend on the processing

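Of the 10 genes, 9 kept their direction and their side of the threshold in each of the 15 alternatives. *Ccnd2* was the exception, at 0.83 without gland M9232 and 0.996 without tumor T9232 on the log2 scale. The number of the 10 genes called was 6 in the analysis with the replicate block, and the pairing by mouse changed no call among them. Leaving out 1 library at a time gave 5 to 6 called genes. The share of *Ccnd1* among the D cyclins was higher in the tumors by 24.7 percentage points without division by exon length. With 1 library left out, it was higher by 24.1 to 31.3 points. Without the division by length, *Ccnd2* and not *Ccnd1* was the highest D cyclin in every tumor. Of the cell cycle lists, DESeq2 called 2 genes of the MuvB and FoxM1 factors where limma called 1, and leaving out 1 library gave 1 to 2. For the other cyclins and CDKs, 0 to 3 genes were called with 1 library left out. Of 32 other genes named here with values, *E2f3* and *E2f7* not counted, 26 kept their side of the threshold in all alternatives. The call was lost in at least 1 alternative for 4 (*Ccnf*, *Cdk18*, *Cdkn3* and *Cks1b*). *Cdk4* gained the call in 8, and *Atf3* gained it without gland M9232 (1.41 on the log2 scale). Of the 32 genes, 0 changed sign. The counts of the other lists stayed within 1.5 times. Genes with few fragments, such as *Ccne1* with 14 in tumor T9232, are limited by depth; intervals and floors cover counting error or the spread between 3 mice only.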
